A study of Mus musculus with 156 samples.

Results

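A mouse embryonic stem cell line with an inducible Firre transgene, which doxycycline switches on, was compared in gene expression with its control, both in the wild-type (WT) background and both before any doxycycline. The comparison used 6 of the 156 libraries of the series, chosen by their labels: the 3 replicates of the WT transgene line and the 3 of the WT control at 0 min of the long time course. The genotype labels read WT for the control and Firre inducible transgene for the other line. The treatment label reads doxycycline for every library, and at 0 min no time with the drug had elapsed. Both lines grew on gelatin in serum medium with LIF and a pair of inhibitors, PD0325901 against MEK and CHIR99021 against GSK3. What the control carries in place of the transgene, the promoter and insertion site of the transgene and the number of clones behind each line are not given in the sources used here. With 1 line per genotype, a difference that goes with the transgene cannot be told apart from a difference between clones. The sources do not say either whether replicates came from separate cultures, so the p-values measure only the spread between replicate libraries. That spread was estimated from all 60 libraries of the long course rather than from the 6 alone.

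Firre is a long noncoding RNA gene transcribed from the X chromosome into nuclear RNA with repeated sequence blocks that bind the nuclear matrix protein HNRNPU, and it is known for contacts with genes on other chromosomes. An inducible transgene is meant to stay silent until the drug lets its transactivator work at the promoter, and transcription without the drug is called leak. Stem cells in medium with both inhibitors keep naive pluripotency, and a small share of cells in such cultures passes through a state in which genes of the 2-cell embryo, such as the Zscan4 cluster, are on.

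The 6 libraries held between 27931367 and 37733948 counts, and mitochondrially encoded genes took 3.42 to 3.63% of them. Pou5f1, the core pluripotency factor, stood at 1059 to 1089 TPM in the transgene line and 1028 to 1062 TPM in the control. Of the defining markers of other cells, several were below 1 TPM in all 6 libraries: the highest values were 0.324 TPM for Col1a1 and 0.0673 TPM for Col3a1 of fibroblasts, 0.704 TPM for Gata6 and 0.712 TPM for Sox17 of primitive endoderm, and 0.579 TPM for Cdx2 of trophoblast. T of mesendoderm was above that, at 1.96 to 2.45 TPM in the transgene line and 1.26 to 1.88 TPM in the control, as was Sox1 of neuroectoderm, at 1.81 to 1.89 and 1.40 to 1.79 TPM. Other markers on these lists were well expressed. The 16 primitive endoderm markers summed to 422 to 436 TPM in the transgene line and 412 to 429 TPM in the control. In each line 6 of the 16 averaged under 0.5 TPM. The same pair of lines was sequenced at 0 min of a short time course, 2 libraries per line. The Firre knockout (KO) background has its own transgene line and control at 0 min of the long course, 3 libraries each. These comparisons share no library with one another. The KO libraries of 0 min of the long course stood apart from the others of 0 min in the level of chromosome 11 and of Y-linked genes, with values given beside those results, and their part in the differences between the backgrounds was not tested.

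Firre itself (ENSMUSG00000085396.7, chromosome X, 50555744 to 50635321, minus strand, mm10) was measured first. In CPM, the count scaled to a library of common size, the transgene libraries stood at 74.3, 72.9 and 73.0 and the control libraries at 59.6, 59.3 and 58.7. The groups did not overlap, as in 31.2% of all genes tested, and the log2 fold change was 0.31 ± 0.04 (standard error, edgeR adjusted p = 6.68e-08).

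In TPM, which also divides by transcript length, the gap was wider, at 45.8, 45.8 and 46.8 in the transgene line against 24.7, 24.3 and 23.6 in the control. A library's count divided by its TPM gives, up to a scale, the transcript length that the quantification assigned to Firre. Relative to the control of the long course this length was 0.651, 0.650 and 0.628 in the transgene libraries, so their Firre reads were assigned to shorter transcripts on average. Of 13289 genes with such a ratio 11 had one at or below that of Firre, and 90% of genes lay between 0.932 and 1.08. After 120 min of doxycycline the length was 0.433 and 0.420 in the WT transgene line and 0.437 and 0.434 in the KO transgene line. At that time it was 1.16 and 1.06 in the WT control. The KO controls of 0 min, which hold few Firre reads, were short too, with means of 0.34 in the long and 0.48 in the short course. Whether the shorter length in the WT transgene line at 0 min comes from transgene RNA was not tested. With an offset for this length the log2 fold change at 0 min was 0.95 ± 0.07 (edgeR adjusted p = 1.34e-14), and on log2(TPM + 1) it was 0.90 ± 0.09 (limma adjusted p = 4.32e-10).

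The short course repeated the difference in length and in TPM but not in counts. Firre stood at 69.2 and 61.2 CPM in the transgene line against 57.5 and 71.2 in the control, so the groups overlapped, and the log2 fold change was 0.02 ± 0.10 (edgeR adjusted p = 0.962). In TPM the transgene libraries stood at 45.5 and 41.4 and the control libraries at 22.9 and 30.2, and the relative length was 0.645 and 0.589 against 1.06 and 1.01. The length offset gave 0.76 ± 0.13 there (edgeR adjusted p = 1.36e-04). A difference between the courses did not pass (edgeR adjusted p = 0.199, and 0.784 with the offset). In the KO background the transgene line held 26, 28 and 26 Firre counts and its control 12, 11 and 11, so the log2 fold change there, 1.35 ± 0.28 (edgeR adjusted p = 6.81e-04), rests on few reads.

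**Figure D1:**
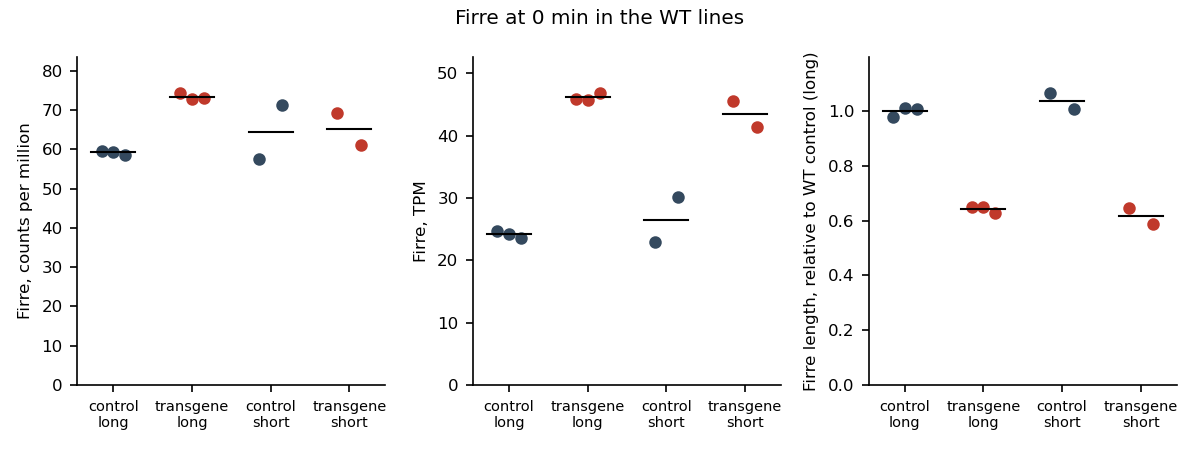
Firre at 0 min in the WT control and WT transgene libraries of both courses, in CPM, in TPM and as the assigned transcript length relative to the WT control of the long course; points are libraries and lines are means. In TPM and length the groups do not overlap in either course, while in CPM they overlap in the short course.

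Across all genes tested, 2312 of 17565 passed at 0 min of the long course (13.2%, edgeR's quasi-likelihood test, Benjamini-Hochberg adjusted p under 0.05), 1269 higher (7.22%) and 1043 lower (5.94%) in the transgene line. Most differences were small: the median size among passing genes was 0.22 on the log2 scale. Of the passing genes 351 (2% of those tested) differed by 0.58 or more on the log2 scale, 111 higher (0.632%) and 240 lower (1.37%). With the length offset 1028 genes passed, and on log2(TPM + 1) 897, of which 403 were higher and 494 lower. The compared libraries alone gave 2765, with 1362 higher and 1403 lower, so which direction held more genes depended on the fit. The short course gave 528 of 18009 genes (2.93%), 190 higher (1.06%) and 338 lower (1.88%), or 51 higher and 234 lower on TPM, and the KO transgene line differed from its control in 622 of 17565 (3.54%; 322 or 1.83% higher, 300 or 1.71% lower).

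In the short course 282 genes passed in the same direction as in the long one, 102 higher and 180 lower, which is 12.2% of the long list and 53.4% of the short list. A further 7 genes passed with opposite signs. Of the 2310 genes that passed in the long course and were tested in the short one, 79.8% had the same sign there, against 61.8% of all genes. Of 349 such genes that differed by 0.58 or more, 91 (26.1%) passed again in the same direction. The 282 rests on few short-course libraries: it was 98 without replicate 2 of the short control, 148 without replicate 1 and 140 without replicate 2 of the short transgene line. A direct test of the difference between the courses called 95 of 17551 genes (0.541%), 42 (0.239%) more positive and 53 (0.302%) more negative in the long course, or 6 and 15 with the length offset and 62 and 44 in the fit to the compared libraries alone. That count ran from 28 without replicate 2 of the short control to 343 without its replicate 1, and it fell to between 36 and 60 without any one of control replicates 1 or 2 or transgene replicates 1, 2 or 3 of the long course, or transgene replicates 1 or 2 of the short course.

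**Figure D2:**
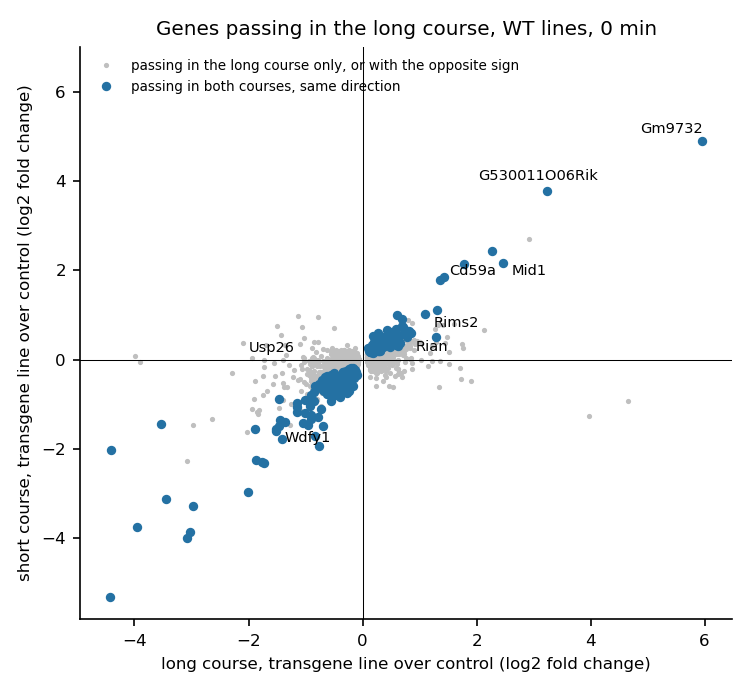
Log2 fold change of the WT transgene line over the WT control at 0 min in the long course (x axis) and the short course (y axis), 1 point per gene that passed in the long course, with those that passed in both in the same direction in colour. Mid1 and Wdfy1 lie far from 0 on both axes, and Usp26 has values of -1.40 and -0.02.

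Among genes with a mean of at least 1 CPM and an established symbol, the largest rise was that of Mid1 (ENSMUSG00000035299.16, chromosome X, 169685199 to 170005736, plus strand), which encodes a microtubule-associated ubiquitin ligase and lies at the edge of the pseudoautosomal region, the stretch that X and Y share. Mid1 stood at 34.8, 36.0 and 34.1 CPM in the transgene libraries and at 7.12, 6.40 and 5.61 in the control. The groups lay far apart, by 2.46 ± 0.07 on the log2 scale (edgeR adjusted p = 2.90e-43), and the short course gave 2.16 ± 0.10 (edgeR adjusted p = 2.60e-27). The KO transgene line was above its own control too, by 1.26 ± 0.06, and the difference between the backgrounds passed (1.20, edgeR adjusted p = 1.96e-16).

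G530011O06Rik (ENSMUSG00000072844.6, chromosome X, 169975043 to 169978917, minus strand), named after its values were seen, lies within Mid1 on the opposite strand. It stood at 1.58, 1.59 and 1.29 CPM against 0.115, 0.198 and 0.156, with log2 fold changes of 3.23 ± 0.29 in the long and 3.77 ± 0.41 in the short course (edgeR adjusted p = 1.68e-14 and 3.01e-10). The library kit does not mark strand, so reads of this gene and of Mid1 cannot be told apart.

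The other measured genes of the pseudoautosomal list went in different directions. Gm47283 (chromosome Y, 90784738 to 90816464) was higher, at 197, 211 and 228 CPM against 123, 138 and 126 (0.72 ± 0.08, edgeR adjusted p = 5.47e-09). Erdr1 (chromosome X, 170009659 to 170019281), close to Mid1, was lower, at 63.1, 66.4 and 67.2 CPM against 87.8, 99.8 and 101 (-0.56 ± 0.08, edgeR adjusted p = 1.75e-06), while in the KO background it was higher (0.46 ± 0.07). X and Y copies share sequence here, so the division of reads between such genes is uncertain. With the length offset Erdr1 did not pass (-0.19, edgeR adjusted p = 0.0552), nor on TPM (-0.21, limma adjusted p = 0.0868).

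Y-linked genes also split. Of 8 tested, 3 were higher and 1 lower in the WT transgene line (7.22% and 5.94% of all genes), with a median log2 fold change of 0.12. Ddx3y, an RNA helicase gene, stood at 65.0, 65.1 and 65.5 CPM against 54.1, 51.6 and 52.7 (0.31 ± 0.04, edgeR adjusted p = 1.27e-07), and Uty, a histone demethylase paralog, and Zfy1, a zinc finger gene, were higher by 0.28 ± 0.06 and 0.54 ± 0.14. Eif2s3y, a translation initiation factor gene, stood at 29.4, 28.3 and 26.8 CPM against 44.2, 41.6 and 46.1 and was the lower one (-0.65 ± 0.05, edgeR adjusted p = 3.77e-17). In the KO background 6 of the 8 were higher (1.83% of all genes were), with a median of 0.98, Eif2s3y among them (1.02 ± 0.06). The difference of Eif2s3y between the backgrounds was -1.66 (edgeR adjusted p = 1.40e-29). The KO lines held on average 39.6 (transgene) and 18.4 CPM (control) of Ddx3y at 0 min of the long course, against 72.7 and 69.5 CPM at 0 min of the short course. The difference of mean log2(CPM + 0.5) between the KO lines in the short course was 0.07 for Ddx3y and -0.13 for Eif2s3y, with overlapping libraries for both. The other 4 did not pass in the WT long course, at -0.04 for Kdm5d, 0.32 for Usp9y, -0.04 for Uba1y and -0.81 for Gm29650. Of 7 tested in the short course 1 passed, Uba1y (0.47 ± 0.10), against 2.93% of all genes. Uty did not pass with the length offset (0.18, edgeR adjusted p = 0.348) or on TPM (0.15, limma adjusted p = 0.388).

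The largest fall by the same measure was that of Wdfy1 (ENSMUSG00000073643.11, chromosome 1, 79702262 to 79776143, minus strand), which encodes an endosomal protein that binds phosphatidylinositol 3-phosphate. It stood at 8.91, 8.32 and 9.71 CPM in the transgene libraries and at 25.1, 26.7 and 25.8 in the control. The log2 fold change was -1.53 ± 0.06 in the long and -1.60 ± 0.09 in the short course (edgeR adjusted p = 5.29e-35 and 1.26e-22). In the KO background it was -0.08 ± 0.04 (edgeR adjusted p = 0.444), and the difference between the backgrounds passed (-1.44, edgeR adjusted p = 4.01e-27). Of the neighbours of Wdfy1, the protease inhibitor gene Serpine2 was also lower (-0.63 ± 0.09, edgeR adjusted p = 6.01e-08), while Mrpl44, which overlaps its start, Cul3 and Ap1s3 did not pass, at 0.03, 0.07 and 0.13.

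Several genes differed in both courses and did not pass in the KO background. Rims2, a gene of synaptic vesicle release, stood at 25.3, 25.7 and 25.6 CPM against 12.9, 11.1 and 12.0 and was higher by 1.10 ± 0.06 in the long and 1.03 ± 0.09 in the short course (edgeR adjusted p = 1.44e-23 and 6.94e-13). Cd59a, an inhibitor of complement lysis, was higher by 1.37 and 1.79, the aldehyde oxidase gene Aox3 by 0.69 and 0.76, and the cadherin gene Cdh4 by 0.71 and 0.74. Lower in both courses were the forkhead factor gene Foxn4 (-1.01 and -0.90), the sorting nexin gene Snx32 (-1.002 and -1.19) and H2-M10.4 (-1.16 and -1.06), a class I histocompatibility gene of a multigene family whose reads may be shared. The difference between the backgrounds passed for each of these 7 genes (edgeR adjusted p from 5.86e-12 for Rims2 to 0.0414 for Cdh4). Cdh4 did not pass on TPM (0.29, limma adjusted p = 0.0564).

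Gm9732 (ENSMUSG00000115483.1, chromosome 14, 43275036 to 43306011), a provisional gene named after its values were seen, was almost undetected in the WT control. It stood at 1.44, 1.51 and 1.38 CPM in the transgene libraries and at 0.0330, 0 and 0.0263 in the control, and in the short course at 2.81 and 3.51 against 0.0388 and 0.160 CPM. Summed over the long-course libraries these were 150 counts against 2, a ratio per read of 74.9 with a 95% exact interval from 20.4 to 624, which covers counting error only. In the KO background the gene was present in both lines and did not pass (-0.37 ± 0.19, edgeR adjusted p = 0.385).

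Usp26 (ENSMUSG00000055780.10, chromosome X, 51753959 to 51801233, minus strand), a deubiquitinase gene near Firre, differed in the long course and not in the short one. It stood at 5.70, 4.97 and 4.88 CPM against 14.1, 14.0 and 12.8 (-1.40 ± 0.09, edgeR adjusted p = 1.78e-22). In the short course it stood at 8.0 and 6.98 against 7.11 and 8.0 CPM (-0.02 ± 0.12, edgeR adjusted p = 0.974), and the difference between the courses passed (-1.40, edgeR adjusted p = 1.93e-06). Of 15 tested neighbours of the Firre locus 3 were higher and 1, Usp26, was lower (7.22% and 5.94% of all genes). The heparan sulfate proteoglycan genes Gpc3 and Gpc4 were higher by 0.27 ± 0.05 and 0.18 ± 0.04, and Ccdc160, a coiled-coil protein gene, by 0.27 ± 0.08. The other 11 did not pass: Hprt (0.10), Rap2c (0.13), Igsf1 (0.08), Phf6 (-0.02), Fam122b (-0.05), Mbnl3 (-0.05), Mospd1 (-0.07), Enox2 (-0.07), Stk26 (-0.22), Hs6st2 (-0.36) and Plac1 (-2.18, standard error 1.20). Gpc4 did not pass without replicate 2 of the transgene line (0.13, edgeR adjusted p = 0.0553) or on TPM (0.16, limma adjusted p = 0.0658).

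Other large rises in the long course were in weakly expressed genes. Bcl2l15, of the BCL2 family, was higher by 1.60 ± 0.21, Nlrp4a, an oocyte gene, by 1.52 ± 0.23, and Apom, an apolipoprotein gene, by 0.96 ± 0.13. In the short course these were 0.79, 0.17 and 0.41 (edgeR adjusted p = 0.0984, 0.860 and 0.0586). Meis2, a homeobox gene, stood at 5.85, 6.11 and 6.01 CPM against 2.74, 2.17 and 2.50 and was higher in the long course (1.28 ± 0.14), the short course (0.52 ± 0.12) and the KO background (0.91 ± 0.19). It was 1 of 42 genes that passed in the same direction in all 3 comparisons. Hmga2, a chromatin architectural gene, was another, at 0.65, 0.37 and 0.44, as was Dnmt3l, a cofactor of DNA methylation, at 0.41, 0.47 and 0.12, both named after their values were seen.

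The same lines were also sampled under doxycycline, and the differences were followed over time as a description, since the drug was then present in both lines. Every transgene library was above every control library for Mid1, Rims2, Cd59a, Rian and Meg3 at each of 5 times of the long and 12 times of the short course, and below it for Wdfy1, Zscan4f and Eif2s3y. The difference of mean log2(CPM + 0.5) ranged for Mid1 from 2.10 to 2.51 in the long and from 2.03 to 2.49 in the short course, and for Wdfy1 from -1.81 to -1.48 and from -1.56 to -1.40. The groups also did not overlap for Usp26 in the long course, with a range from -1.31 to -0.50; in the short course the range was -0.10 to 0.36. The mean level of Usp26 itself dropped between 720 and 1440 min of the long course. In the WT transgene line it was 5.18 and 5.36 CPM at 0 and 720 min, then 3.28, 2.84 and 2.15 CPM. In the WT control it was 13.6 and 13.9 CPM, then 4.87, 4.44 and 3.82 CPM. The cause of this step was not tested. In the KO lines Usp26 was lower at every time of both courses, from -0.57 to -0.35 in the long and from -1.21 to -0.76 in the short course. Some genes followed did not keep their difference between the WT lines over the long course. Its range was -0.30 to 0.10 for Cdkn1a, -0.05 to 0.20 for Asns, -0.04 to 0.30 for Ddx3y and -0.01 to 0.30 for Uty. For Plk2 every WT transgene library was below every control library at all 5 and 12 times, and for Mdm2 at all 5 and at 11 of 12. The size of these differences fell within the long course. It was -0.79 and -0.85 for Plk2 at 0 and 720 min, then -0.34, -0.34 and -0.29. For Mdm2 it was -0.42 and -0.38, then -0.19, -0.13 and -0.20. The cause was not tested.

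**Figure D3:**
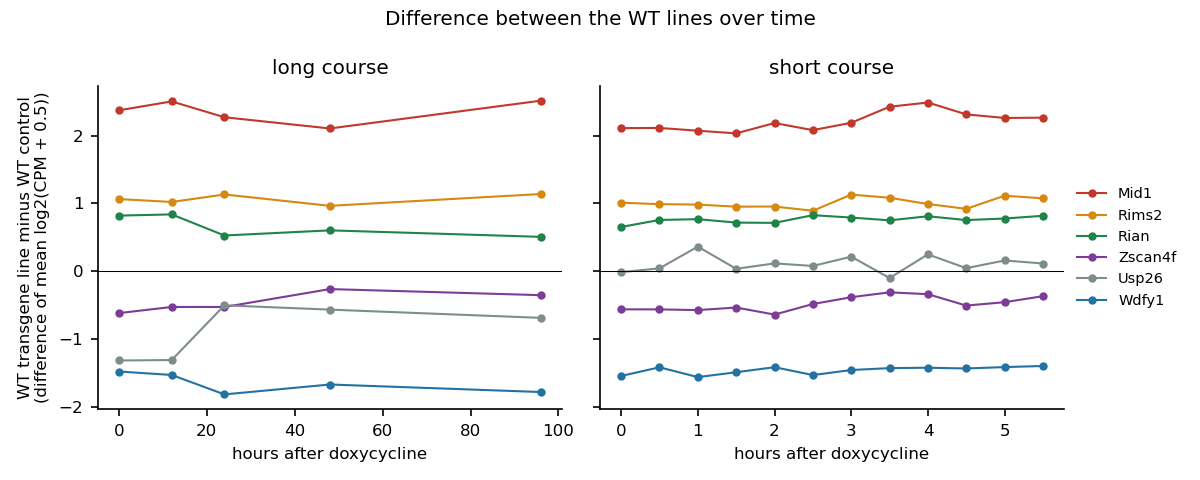
Difference of mean log2(CPM + 0.5) between the WT transgene line and the WT control over the times of the long and short course, 1 line per gene. Mid1 lies above 0 and Wdfy1 below 0 at every time of both courses, while Usp26 lies below 0 in the long course and near 0 in the short course.

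The WT transgene line had less RNA of 2-cell-like genes. Of 17 tested members 13 were lower in the long course (edgeR; 5.94% of all genes were lower), and all 17 values were below 0, with a median log2 fold change of -0.54 against 0.003 over all genes. Summed over the 17 genes, the transgene libraries held 176, 171 and 164 CPM and the control libraries 259, 255 and 243. The sums did not overlap. Of the same 17 genes 9 were lower in the short course (1.88% of all genes), with sums of 256 and 287 against 336 and 420 CPM. In bulk samples, fewer cells of a type and less RNA per cell cannot be told apart.

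The KO background went the other way in the long course. Of the 17 members 12 were higher in the KO transgene line (1.83% of all genes were higher), all 17 values were above 0, and the median was 0.49. The KO transgene libraries summed to 177, 176 and 180 CPM and the KO control to 122, 131 and 134. At 0 min of the short course the KO sums were 380 and 420 against 406 and 442 CPM, so the groups overlapped there.

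Zscan4f, of the telomere-associated Zscan4 cluster, stood at 37.3, 35.8 and 32.1 CPM against 54.0, 56.0 and 51.8, or -0.63 ± 0.06 on the log2 scale (edgeR adjusted p = 1.03e-11). It was -0.58 ± 0.11 in the short course and 0.40 ± 0.06 in the KO background, and the difference between the backgrounds passed (-1.02, edgeR adjusted p = 2.38e-13). Zscan4e was lower by the same test (-0.66 ± 0.08), as were the membrane protein gene Tmem92 (-0.64 ± 0.07), the deubiquitinase gene Usp17lc (-0.75 ± 0.10) and Tcstv3 (-0.91 ± 0.15). Duxf3, a copy of Dux, the homeobox gene whose protein activates genes of this state, stood at 1.28, 1.30 and 1.62 CPM against 2.84, 2.39 and 1.67 (-0.69 ± 0.19, edgeR adjusted p = 0.00658) and was named after its values were seen. Without replicate 1 of the control Duxf3 did not pass (-0.52, edgeR adjusted p = 0.103). The 4 members that did not pass were Zfp352 (-0.47), Usp17la (-0.30), Usp17lb (-0.18) and Usp17ld (-0.25). The Zscan4, Usp17l, Tcstv and Dux genes are near-identical copies, so the value of a single copy is uncertain.

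Some of these genes are neighbours. Of 3 runs of at least 5 consecutive tested genes that passed in the same direction, the longest was the Zscan4 cluster on chromosome 7, from 10900740 to 11614112, with 8 genes lower (median log2 fold change -0.52). Another, on chromosome 13 from 119893388 to 120173888, held Tcstv1 and 4 provisional genes, all lower (median -0.68). The third, on chromosome 4 from 129513581 to 129624059, held Marcksl1, Hdac1, Lck, Eif3i and Tmem234, all higher (median 0.17). There were 6 runs in the fit to the compared libraries alone and 1 with no filter on low counts.

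A pair of Zscan4 promoters is shown because the genes of this cluster were lower together. The sequences come from RefSeq (GRCm38.p6), run from 250 bases before to 50 bases after the start of the gene on its own strand, and were searched on both strands for TGATT followed after any 2 bases by ATCA, a form of the motif known for mouse DUX. The match is in capitals. It lies on the opposite strand, so the printed strand reads TGATAGAATCA.
Zscan4b (chr7:10905001-10905300, minus strand): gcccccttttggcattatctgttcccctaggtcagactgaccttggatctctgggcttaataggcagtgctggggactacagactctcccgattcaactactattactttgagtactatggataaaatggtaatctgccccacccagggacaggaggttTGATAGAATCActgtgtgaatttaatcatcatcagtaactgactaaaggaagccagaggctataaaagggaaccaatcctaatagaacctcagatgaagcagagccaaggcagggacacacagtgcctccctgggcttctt
Zscan4f (chr7:11397665-11397964, plus strand): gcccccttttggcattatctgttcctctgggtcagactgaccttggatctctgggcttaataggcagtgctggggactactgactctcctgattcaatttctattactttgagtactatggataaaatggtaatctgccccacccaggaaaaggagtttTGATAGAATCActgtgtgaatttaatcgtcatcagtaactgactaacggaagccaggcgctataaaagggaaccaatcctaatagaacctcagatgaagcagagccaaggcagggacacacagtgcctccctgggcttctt
The match begins at position -91 in both. Zscan4c and Zscan4d hold it at -114 and -125. Of 32851 promoters of this length 68 held a match (0.207%), as did 4 of the 11 members of the 2-cell-like list with a promoter sequence, all of them Zscan4 genes. Sp110, Zfp352, Duxf3 and the 4 Usp17l genes with a promoter sequence had none in this window. The Zscan4 promoters are copies of one another, so the 4 matches are not independent, and a match is a description of letters.

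**Figure D4:**
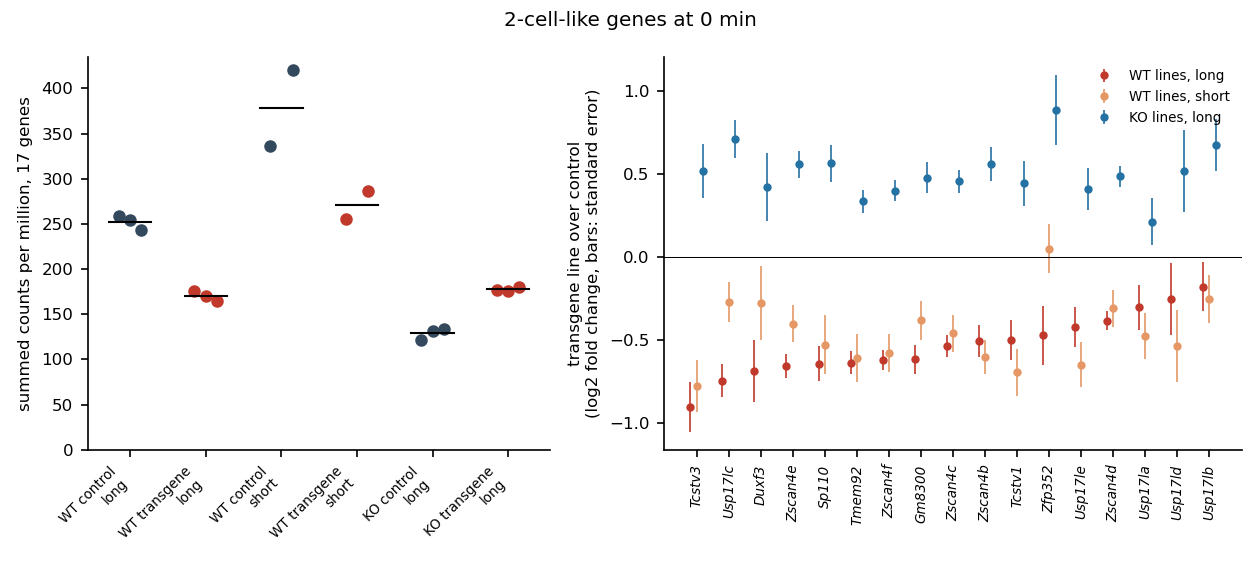
Summed CPM of the 17 tested 2-cell-like genes in each library at 0 min, and the log2 fold change of the transgene line over its control for each gene with its standard error. In the long course all 17 values of the WT lines lie below 0 and all 17 of the KO lines above 0, including genes that did not pass.

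Germline genes, which stem cells express weakly, were lower in the long course. Of 15 tested 9 were lower (5.94% of all genes were), with 13 values below 0 and a median of -0.41. Rhox5, an X-linked homeobox gene of the reproductive tract, stood at 6.56, 7.65 and 7.19 CPM against 12.5, 12.2 and 14.3 (-0.86 ± 0.08, edgeR adjusted p = 6.15e-15). Lower too were Dazl, whose protein binds RNA in germ cells (-0.50 ± 0.05), the germ cell helicase gene Ddx4 (-0.49 ± 0.07) and the tubulin gene Tuba3a (-0.41 ± 0.06). Of the 15, Ddx4 alone passed in the short course (-0.42 ± 0.11), where 2.93% of all genes passed. The difference between the courses passed for Rhox5, Dazl and Tuba3a (edgeR adjusted p = 1.67e-04, 0.0174 and 0.0107). Dppa3, a naive pluripotency gene that also acts in the egg, was -0.81 ± 0.09 in the long and 0.17 ± 0.16 in the short course (difference -0.997, edgeR adjusted p = 0.00385).

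Targets of p53, the transcription factor of the DNA damage response, were more often lower than higher in the long course. Of 21 tested, 11 were lower and 2 higher (5.94% and 7.22% of all genes), with a median of -0.15. Plk2, a stress-induced kinase gene, stood at 33.4, 31.3 and 29.9 CPM against 55.7, 53.9 and 54.6 (-0.80 ± 0.05, edgeR adjusted p = 6.34e-24). Mdm2, the ubiquitin ligase that degrades p53, was lower (-0.42 ± 0.03), as were the receptor gene Eda2r (-0.43 ± 0.05) and the cell cycle inhibitor gene Cdkn1a (-0.30 ± 0.04). Of 20 tested in the short course 1 was lower and 1 higher (1.88% and 1.06% of all genes). The difference between the courses passed for Plk2 and Mdm2 (edgeR adjusted p = 3.76e-06 and 0.00513) and not for Eda2r or Cdkn1a (0.0799 and 0.210). The 11 became 7 with the length offset and on TPM, and 6 without replicate 1 of the transgene line. Over all genes the 1043 lower ones became 486, 494 and 739 under these settings.

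Immediate early genes leaned the same way, with 6 of 15 lower and 1 higher in the long course (5.94% and 7.22% of all genes), and 3 lower on TPM. Fos, among the first genes to respond to serum, stood at 1.28, 0.850 and 0.919 CPM against 2.01, 2.09 and 1.53 (-0.90 ± 0.20, edgeR adjusted p = 6.47e-04). Btg2, a growth inhibitor gene that is also on the p53 list, was lower (-0.25 ± 0.05), as was Jun, which pairs with Fos in the AP-1 factor (-0.33 ± 0.10), while Dusp1, a phosphatase gene, was higher (0.19 ± 0.05). Etv5, a target of FGF signalling, was -0.30 ± 0.03 in the long and 0.02 ± 0.04 in the short course (difference -0.33, edgeR adjusted p = 0.00677). It was the 1 lower member among 15 FGF/ERK targets, of which 4 were higher, or 2 on TPM. The factor genes Etv4 and Etv1 and the inhibitor genes Spry4 and Spred1 were the higher ones, by 0.38 ± 0.06, 0.25 ± 0.05, 0.71 ± 0.11 and 0.21 ± 0.05.

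Genes of the integrated stress response, which ATF4 drives when amino acids are short, were more often higher than lower. Of 24 tested in the long course 14 were higher and 2 lower (7.22% and 5.94% of all genes), with a median of 0.15. Asns, for asparagine synthetase, stood at 916, 908 and 884 CPM against 795, 768 and 792 (0.20 ± 0.03, edgeR adjusted p = 1.37e-08). The enzyme genes Pck2 and Cth were higher by 0.34 ± 0.05 and 0.18 ± 0.03, and the factor gene Atf5 by 0.62 ± 0.09, while Atf4 and Ddit3 did not pass, at 0.0022 and 0.02. The lower ones were Ddit4 (-0.34 ± 0.07) and Sesn2 (-0.15 ± 0.04), inhibitors of mTORC1 signalling, the second of them also on the p53 list. Of these 24 genes 2 were higher in the short course (1.06% of all genes were), Atf5 (0.51 ± 0.12) among them. The 14 became 8 with the length offset and 6 on TPM, while over all genes the 1269 higher ones became 542 and 403.

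Of 15 targets of TGF-beta, Nodal and BMP signals, 6 rose and 2 fell in the long course (7.22% and 5.94% of all genes), and on TPM 2 rose and 2 fell. Lefty2, a Nodal inhibitor gene, stood at 155, 151 and 164 CPM against 108, 106 and 113 (0.52 ± 0.04, edgeR adjusted p = 2.28e-19). Its paralog Lefty1 and the BMP target Id3 were higher by 0.26 ± 0.07 and 0.25 ± 0.06. Lefty2 was -0.09 ± 0.07 in the short course, and the difference between the courses passed (0.59, edgeR adjusted p = 1.03e-04).

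Imprinted genes are expressed from 1 parental copy. In the long course 8 of 28 were higher and 3 lower (7.22% and 5.94% of all genes). The noncoding RNAs of the maternal Dlk1-Dio3 region on chromosome 12 were higher: Rian (109603940 to 109661716) stood at 244, 249 and 242 CPM against 138, 138 and 140.0, and Meg3 (109541001 to 109571726) at 107, 104 and 108 against 64.1, 68.5 and 58.7. The groups did not overlap for either, with log2 fold changes of 0.82 ± 0.04 and 0.74 ± 0.04 (edgeR adjusted p = 1.11e-31 and 1.79e-22), and Mirg was higher by 0.79 ± 0.09. In the short course 5 of the 28 were higher and 4 lower (1.06% and 1.88% of all genes). Rian and Meg3 were higher again there (0.65 ± 0.07 and 0.61 ± 0.13), and Mirg was 0.46 ± 0.16 (edgeR adjusted p = 0.107). The KO background gave -0.11 ± 0.04 for Rian (edgeR adjusted p = 0.0490) and -0.14 ± 0.04 for Meg3 (edgeR adjusted p = 0.0536).

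Snrpn, a splicing protein gene of the Prader-Willi region, was higher by 0.26 ± 0.03 in the long and 0.21 ± 0.05 in the short course. Ndn, a growth suppressor gene of the same region named after its values were seen, was higher in both (0.69 ± 0.10 and 0.91 ± 0.12) and lower in the KO background (-0.57 ± 0.09, edgeR adjusted p = 1.41e-05). Plagl1, an imprinted zinc finger gene named in the same way, was 1 of the 7 genes with opposite signs, at 0.25 ± 0.04 in the long and -0.29 ± 0.06 in the short course. Plagl1 did not pass with the length offset (0.21, edgeR adjusted p = 0.111) or on TPM (0.19, limma adjusted p = 0.218).

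Apart from Dppa3, described above (-0.81 ± 0.09 in the long course), pluripotency genes showed small differences. In the long course, 2 naive markers of 16 were higher and 3 lower, Dppa3 among the latter, and of 12 general markers 4 were higher. Over all genes tested 7.22% were higher and 5.94% lower. Tdgf1, a Nodal co-receptor gene, was higher by 0.29 ± 0.03 and L1td1, an RNA-binding protein gene, by 0.24 ± 0.03, while Klf4 was lower (-0.19 ± 0.04). Pou5f1, Nanog, Sox2 and Esrrb did not pass, at 0.05, 0.06, 0.05 and 0.02. The summed TPM of the fibroblast list ran from 110 to 119 in the transgene line and from 92.4 to 96.1 in the control, with 8 of 13 members under 0.5 TPM. Vim, an intermediate filament gene that stem cells also express, was higher, at 151, 141 and 147 CPM against 113, 113 and 117 (0.35 ± 0.04, edgeR adjusted p = 3.38e-09). In the short course the sums overlapped, at 111 to 120 TPM in the transgene line and 113 to 119 TPM in the control. Of 7 list members tested there 0 passed with edgeR or DESeq2, against 2.93% of all genes with edgeR, and 2 were higher at an unadjusted edgeR p under 0.05. Of 13 mitochondrially encoded genes 1 passed, mt-Nd3, a subunit of complex I (13.2% of all genes passed). It stood at 247, 256 and 256 CPM against 148, 144 and 147 (0.79 ± 0.16, edgeR adjusted p = 4.85e-04). In the short course mt-Nd3 stood at 285 and 295 against 122 and 189.6 CPM (0.90 ± 0.29, edgeR adjusted p = 0.0758).

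Some lists hardly moved. Of 13 heat shock genes, 6 genes of the X inactivation centre and 8 X-linked partners of Y-linked genes, 0 passed in the long course with edgeR or with DESeq2. At an unadjusted p under 0.05, which 24.7% of all genes had, 3 heat shock genes and 1 X-linked partner were higher and 1 gene of the X inactivation centre was lower. Of 5 genes known for contacts with the Firre locus 1, Ppp1r10, was lower (-0.22 ± 0.04), and of 17 nuclear matrix and chromatin partners 1, Lmnb1 of the nuclear lamina, was higher (0.11 ± 0.02). Over all genes tested 5.94% were lower and 7.22% higher.

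By chromosome, chromosome 11 stood apart in the long course. Of its 1334 tested genes 174 (13.0%) were lower and 34 (2.55%) higher, while outside it 5.35% were lower and 7.61% higher. The median log2 fold change of its genes was -0.06, and 12 of 13 windows of 10 Mb had a negative median. An index of the chromosome was its median deviation in log2 CPM less that of genes on the other autosomes. This index was -0.13, -0.13 and -0.12 in the transgene libraries and -0.08, -0.07 and -0.07 in the control. The difference of -0.05 had an exact two-sided permutation p of 0.1, the smallest that 3 against 3 allows. Chromosome 11 was picked out from these same libraries, so this p does not test the shift. As a median over genes the difference was -0.06 at 0 min and -0.07 at 720 min, lay between -0.01 and 0.003 at the later times of the long course, and was 0.02 at 0 min of the short course. The KO lines differed from each other as well, but from another level: at 0 min of the long course their indices were 0.24 to 0.25 (transgene) and 0.31 (control), above every WT library, while those of the short course were -0.13 to -0.08. Their difference was -0.06 at 0 min of the long course, between -0.07 and -0.05 at all 5 of its times and between -0.08 and -0.02 at the 12 times of the short course. In them 105 of the 1334 genes were lower (7.87%, against 1.71% of all genes) and 6 higher at 0 min of the long course. The count of 174 was 105 without replicate 2 of the control, 111 without replicate 1 of the transgene line, 57 with the length offset and 58 on TPM. Over all genes the 1043 lower ones became 734, 739, 486 and 494 under these settings, in the same order. Without chromosome 11 the count over all genes was 2104 of 16231.

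**Figure D5:**
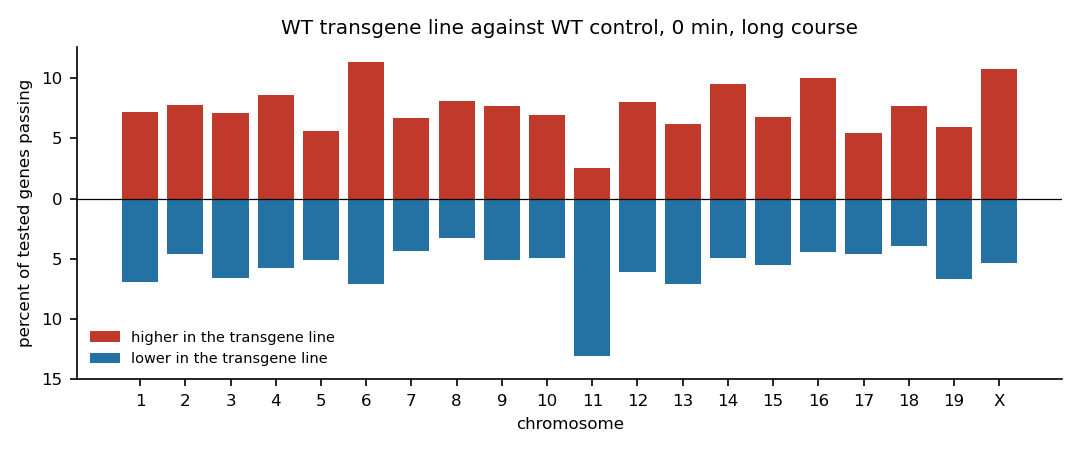
Share of the tested genes of each chromosome, in percent, that passed in the long course at 0 min, higher and lower in the WT transgene line. On chromosome 11 2.55% of the genes were higher and 13.0% lower.

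The backgrounds were also compared directly. The difference between transgene line and control differed between the WT and KO backgrounds in 1146 of 17565 genes (6.52%, edgeR), 551 (3.14%) more positive and 595 (3.39%) more negative in the WT background. With the length offset 476 genes passed, and on TPM 406, 131 more positive and 275 more negative. Of 278 genes that passed in both backgrounds 174 had the same direction, which is 7.53% of the WT list and 27.97% of the KO list, and 104 had opposite directions. Of these 104, 80 were lower in the WT and higher in the KO transgene line, among them Zscan4f, Zscan4e, Tmem92, Usp17lc, Eif2s3y, Erdr1, Klf4, Btg2 and Plk2.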

How the data were processed

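RNA was extracted with TRIzol and columns and sequenced as poly(A) libraries from a kit that does not mark strand, per the labels' protocols. Expected counts and TPM per gene were deposited by the authors. The submitters' processing notes name Salmon 1.5.2 and mm10, and the step from transcripts to genes is not given in the sources used here. TPM values were taken as the authors deposited them. Of the deposited expected counts 76.0% were whole, and all were rounded.

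Of 40914 gene identifiers 40846 matched GENCODE M21, which gave positions. Replicates differed by more than sampling noise. At 0 min of the long course, chi-square per degree of freedom was 2.14 to 3.00 in the WT groups and 2.94 to 4.74 in the KO groups. At 0 min of the short course it was 6.85 in the WT transgene line and 6.79 in the WT control. edgeR 4.0.16 in R 4.3.3 (quasi-likelihood, robust, TMM scaling, filterByExpr with a minimum count of 10 and a minimum total of 15, Benjamini-Hochberg adjustment) was fitted to all 60 long and all 96 short libraries separately, so that groups share 1 estimate of spread, and to 20 libraries of 0 min for the difference between courses. The steps were tested on simulated data. Alternatives were DESeq2 1.42.0, RLE scaling, no filter, limma 3.58.1 on log2(TPM + 1), an offset for transcript length, the compared libraries alone, a replicate block and leaving out each library. The interval for a ratio of counts is exact and covers counting error only.

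The comparison and its 35 gene lists were chosen with earlier results of these data known. Named genes are Firre, the 10 largest changes each way in the long course with a mean of at least 1 CPM and an established symbol, the 5 largest each way shared by both courses, all measured Y-linked, pseudoautosomal and Firre-neighbour genes, and up to 4 passing members of each other list by adjusted p. Named outside this rule, after values were seen, were Gm9732, G530011O06Rik, Ndn, Plagl1, Hmga2, Dnmt3l, Duxf3, Sesn2, Spred1, Ddit4, Jun, Lefty1 and Tcstv3, the members of the runs, the list members given as not passing, and those listed as lower in the WT and higher in the KO transgene line. Each list is described by counts and its median, with no test of the list. The counts for single lists under the alternatives were added after seeing the data, and chromosome 11 was picked out after the values by chromosome were seen. A few members of the lists are not reported here by name.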

Additional observations from a re-analysis of the deposited data

Results flagged for a closer look

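The difference between transgene line and control was itself tested between the WT and KO backgrounds, and genes described above that passed are listed here with the WT value minus the KO value on the log2 scale. In all 1146 genes passed this test (6.52% of 17565, edgeR). Firre gave -1.04, on few reads in the KO lines. Among the genes with the largest WT differences, Gm9732 gave 6.33, G530011O06Rik 1.69, Bcl2l15 1.58, Mid1 1.20, Nlrp4a 1.16, Cd59a 1.15, Rims2 0.93, Apom 0.87, Aox3 0.80 and Cdh4 0.57. On the lower side H2-M10.4 gave -1.68, Wdfy1 -1.44, Snx32 -1.09, Usp26 -0.99 and Foxn4 -0.64.

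Genes of the 2-cell-like list gave -1.46 for Usp17lc, -1.22 for Zscan4e, -1.11 for Duxf3, -1.02 for Zscan4f and -0.97 for Tmem92. Germline genes gave -0.98 for Rhox5, -0.62 for Ddx4 and -0.38 for Dazl. The p53 targets gave -0.98 for Plk2, -0.48 for Mdm2, -0.47 for Eda2r and -0.35 for Cdkn1a, and the immediate early genes -1.15 for Fos and -0.43 for Btg2. Of 28 imprinted genes 11 were more positive and 2 more negative in the WT background (3.14% and 3.39% of all genes). The KO lines themselves had 1 of the 28 higher and 8 lower in the transgene line (1.83% and 1.71% of all genes). Among the more positive were Ndn at 1.26, Rian at 0.94, Meg3 at 0.88, Mirg at 0.83, Plagl1 at 0.34 and Snrpn at 0.29.

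The KO libraries of 0 min of the long course stood apart in Y-linked genes and chromosome 11, and the part of this in these differences was not tested. On the sex chromosomes Eif2s3y gave -1.66, Erdr1 -1.02, Ddx3y -0.80, Uty -0.76, Gm47283 -0.43 and Gpc3 0.27. The remaining ones were mt-Nd3 at 0.86, Lefty2 at 0.68, Vim at 0.52, Dnmt3l at 0.29, Tdgf1 at 0.24, L1td1 at 0.22, Pck2 at 0.21, Etv5 at -0.17 and Klf4 at -0.38.

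The difference between the long and short courses was tested in the same way, and 95 genes passed (0.541% of 17551, edgeR). Long minus short, it was -1.40 for Usp26, -0.997 for Dppa3, -0.85 for Rhox5, -0.68 for Plk2, -0.49 for Tuba3a, -0.46 for Eif2s3y, -0.41 for Dazl, -0.35 for Mdm2 and -0.33 for Etv5, and 0.59 for Lefty2 and 0.53 for Plagl1. Groups of 3 or 2 libraries were not tested for single libraries that stand apart.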

How the results depend on the processing

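Depth limits mainly weak genes such as Firre in the KO lines and Gm9732. The 1 transgene line and 1 control per background limit every comparison. With DESeq2 the counts were 2087 for the long course, 484 for the short, 263 for both, 1043 for the difference between backgrounds and 103 for that between courses. With RLE scaling they were 2252, 525, 281, 1148 and 93. With the length offset they were 1028, 307, 167, 476 and 21, and on log2(TPM + 1) 897, 285, 155, 406 and 20. The cause was not tested. Counting only differences of 0.58 or more left 351, 183 and 70 in the long course, the short course and both. The compared libraries alone, which leave fewer samples to estimate the spread, gave 217 for the short course and 153 for both. No filter on low counts gave 280 for the difference between courses.

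Leaving out 1 library gave 1668 to 1825 genes in the long course, 125 to 732 in the short, 98 to 308 in both, 862 to 1109 between backgrounds and 28 to 343 between courses. The lowest short count came without control replicate 2 of that course, and it was 224 and 194 without transgene replicates 1 and 2. Where this left 1 library in a group, that library was assumed to vary like those of the other groups. The log2 fold change of Firre was 0.30 to 0.32 in the long course, and -0.12 to 0.18 in the short, below 0 without control replicate 1 (-0.12) and without transgene replicate 1 (-0.07). Firre in the short course passed with the length offset (0.76) and on TPM (0.70).

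Replicate numbers paired samples by neither label nor values in the long course, where same-numbered deviations correlated at 0.05, -0.03 and -0.03. With the replicate number as a block the counts were 2458, 705, 373, 1234 and 114, and Firre was 0.31 and 0.02. Of 59 single genes followed in the long course, 6 did not pass under at least 1 alternative (Cdh4, Uty, Erdr1, Gpc4, Plagl1 and Duxf3, with values beside them above), and none of these 59 reversed there under the alternatives run. Other named genes were not followed under the alternatives.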

Other observations

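The remaining lists are given by their passing members at 0 min of the long course (edgeR adjusted p under 0.05). Over all genes tested 7.22% were higher and 5.94% lower in the WT transgene line. Of 23 genes of glycolysis and the hypoxia response 5 were higher (7.22% of all genes were higher), among them the enzyme genes Tpi1 (0.27), Ldha (0.21) and Eno1 (0.15). Of 18 genes of the G1/S phase 4 were higher and 1 lower, or 0 and 1 on TPM with limma (5 and 1 at an unadjusted p under 0.05 with edgeR), with Ccne2, a cyclin that drives entry into S phase, at 0.23 and Pcna, the sliding clamp of replication, at 0.11. Of 18 G2/M genes 1 was lower, the mitotic kinase gene Plk1 (-0.12). Ccnd1, a cyclin gene that Wnt signals induce, was higher (0.30), and Notum, an inhibitor of Wnt signals, was lower (-0.21), each the 1 passing member in its direction among 14 Wnt targets.

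In cholesterol synthesis 2 of 20 were higher, Idi1 (0.19) and Sqle (0.16), and 2 were lower, Hmgcs1 (-0.18) among them. Of 9 interferon response genes 2 were higher and 1 lower, with a median of -0.16 and 6 values below 0: Ddx58, a sensor of viral RNA, was higher (0.36), as was Ifitm3 (0.24). Of 13 NRF2 targets 1, G6pdx, was higher (0.12). Of 16 genes of the unfolded protein response 4 were higher and 1 lower, and of 14 genes of Polycomb repressive complex 2 and its partners 1 was higher and 2 lower.

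Lineage marker lists are set against the same shares, 7.22% of all genes higher and 5.94% lower. Of 14 primitive endoderm markers 1 was higher and 3 lower, Gata4 among them (-0.52), and the summed TPM of that list was 422 to 436 in the transgene line and 412 to 429 in the control. Of 13 trophoblast markers 2 were higher, with Tfap2a at 0.67, and 3 lower, and the sum was 38.6 to 41.1 against 41.4 to 45.6 TPM. Of 12 formative and primed epiblast markers Fst was higher (0.36) and Otx2 lower (-0.69). Of 8 mesendoderm markers 1 was higher, Eomes (0.25), and of 7 neuroectoderm markers Ncam1 was higher (0.33) and Tubb3 lower (-0.18).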
